A study of Mus musculus with 11 samples.

Results

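Glucose transport and the response to insulin were followed through 10 genes across the cell classes of the postnatal day 10 mouse retina. The genes were taken by name, 10 of the 25311 gene rows of the count matrix, and all 10 were present: the glucose transporter genes Slc2a1 and Slc2a3, the α-arrestin genes Txnip and Arrdc4, the insulin receptor gene Insr, the receptor substrate genes Irs1 and Irs2, the transcription factor genes Foxo1 and Foxo3, and the pyruvate dehydrogenase kinase gene Pdk4. The study dissociated retinas of C57BL/6J mice with papain and sequenced single cells with unique molecular identifiers (UMIs), so a count is a number of captured RNA molecules. PBS was given to 3 mice (labelled as normal controls), and 3 littermates were given streptozotocin (STZ), the toxin of pancreatic β-cells that the study used to model hyperglycemia-associated retinopathy (Phase I ROP). In a second set of littermates every pup was given STZ, and the nursing dams ate a diet enriched in omega3 (ω-3, 2 pups) or omega6 (ω-6, 3 pups) long-chain polyunsaturated fatty acids. All 11 retinas were collected on postnatal day 10. The diet set has no pups without STZ, so the diets were compared only with each other. Pups on the 2 diets were nursed by different dams, so effects of diet and of dam cannot be told apart. The study also describes smaller litters for STZ-treated than for untreated pups, meant to equalize weight gain.

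GLUT1, the product of Slc2a1, carries glucose across the blood-retinal barrier and into glia and photoreceptors, and GLUT3, the product of Slc2a3, is the high-affinity transporter typical of neurons. TXNIP and ARRDC4 pull glucose transporters from the plasma membrane, and their genes are activated by the glucose-sensing factors MondoA and ChREBP. The insulin receptor signals through IRS1 and IRS2 to the kinase AKT, which keeps FOXO1 and FOXO3 out of the nucleus. When insulin signalling is low, FoxO factors in many tissues raise Irs2, Insr and Pdk4, the last of which encodes the kinase that holds pyruvate back from the mitochondrial tricarboxylic acid cycle.

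The genes lie on 7 chromosomes of GRCm38 (GENCODE M21). Slc2a1 spans chr4:119108711-119137983 on the plus strand and Slc2a3 spans chr6:122727809-122801640 on the minus strand. Txnip spans chr3:96557957-96561883 on the plus strand and Arrdc4 spans chr7:68736995-68749241 on the minus strand. Insr spans chr8:3122061-3279617 on the minus strand and Irs2, on the same chromosome, spans chr8:10984681-11008458 on the minus strand. Irs1 spans chr1:82233101-82291416 on the minus strand. Foxo1 spans chr3:52268336-52353221 on the plus strand, Foxo3 spans chr10:42181841-42276755 on the minus strand and Pdk4 spans chr6:5483351-5496309 on the minus strand. Whether the counting used strand is not given in the sources used here. The gene Gm9747 is annotated over it on the opposite strand, and all 708 cells with a Gm9747 UMI also had an Irs1 UMI, with equal counts in 701 of the 737 cells with any Irs1. The files hold 904 UMIs for Irs1 and 865 for Gm9747, so the same reads appear to have been given to both, and the Irs1 values below cannot be told apart from Gm9747. Other annotated genes with UMIs overlap Foxo1 (Gm38034, 440 UMIs), Txnip (Gm15441, 56) and Irs2 (9530052E02Rik, 23), and Foxo1, Txnip and Irs2 may share reads with them.

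Promoter sequence was found in the RefSeq table for 8 of the 10 genes; Slc2a3 and Insr had no entry. The promoters of 4 are shown: the α-arrestin genes as textbook targets of MondoA and ChREBP, which bind pairs of E-box elements, and both receptor substrate genes because their RNA rose with STZ. Each is the 250 bases before the RefSeq start (GRCm38.p6), 5′ to 3′ on the gene's strand, with capitals marking matches on either strand to CACGTG, to a pair of CACGNG copies 5 bases apart, to TGANTCA (AP-1), to TGACGTCA (CREB) or to TGTTTAC (FoxO). CACGTG is itself one form of CACGNG.
Txnip, chr3:96557707-96557956, plus strand: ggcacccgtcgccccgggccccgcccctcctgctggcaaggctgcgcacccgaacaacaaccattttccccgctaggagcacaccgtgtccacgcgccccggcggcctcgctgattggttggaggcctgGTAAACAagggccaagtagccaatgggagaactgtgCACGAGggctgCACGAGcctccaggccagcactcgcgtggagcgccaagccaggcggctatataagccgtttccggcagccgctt
Arrdc4, chr7:68749239-68749488, minus strand: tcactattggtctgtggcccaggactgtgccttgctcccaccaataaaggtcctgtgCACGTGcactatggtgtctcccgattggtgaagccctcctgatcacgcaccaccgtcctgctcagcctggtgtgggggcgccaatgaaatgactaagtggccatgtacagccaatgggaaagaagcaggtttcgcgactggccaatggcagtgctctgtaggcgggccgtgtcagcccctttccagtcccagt
Irs1, chr1:82291440-82291689, minus strand: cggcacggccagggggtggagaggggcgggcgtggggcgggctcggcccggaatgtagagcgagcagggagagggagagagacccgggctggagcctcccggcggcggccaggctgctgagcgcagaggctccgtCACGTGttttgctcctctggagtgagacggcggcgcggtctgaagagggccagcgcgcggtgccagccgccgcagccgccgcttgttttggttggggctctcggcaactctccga
Irs2, chr8:11008930-11009179, minus strand: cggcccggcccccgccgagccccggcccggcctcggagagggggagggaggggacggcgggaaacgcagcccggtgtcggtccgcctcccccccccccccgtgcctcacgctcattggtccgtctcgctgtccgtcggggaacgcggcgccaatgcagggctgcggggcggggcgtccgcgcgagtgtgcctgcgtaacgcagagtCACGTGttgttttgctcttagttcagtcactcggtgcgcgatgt
The Txnip window held the paired element 85 bases before the start, which 14 of 27025 promoters (0.0518%) hold, and a TGTTTAC match at 121 bases, which 3.09% hold. A match is a description of the letters and not evidence of binding. CACGTG, which 6.05% of promoters hold, occurred once in Arrdc4 (193 bases before the start), Irs1 (115) and Irs2 (44). TGANTCA (6.87% of promoters) and TGACGTCA (1.62%) matched none of the 8 windows, and the windows of Slc2a1, Foxo1, Foxo3 and Pdk4 matched none of the motifs.

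The 20033 cells with more than 300 genes carried 2563064 to 6516478 UMIs per mouse and fell into 25 clusters, which were named from marker genes. The classes with at least 10 cells in every mouse were tested: 10074 rods, 3596 bipolar cells, 3287 amacrine cells, 1425 Müller glia and 1126 cones. The PBS cones were few, at 14, 13 and 46 cells. Among the 20067 deposited cells, 1157 of 18872 barcode sequences occurred in more than 1 library. Levels are given as CPM, the UMIs of a gene scaled to a total of 1000000 for that class and mouse. Before any comparison of the 10 genes, the PBS libraries stood apart from all 8 STZ libraries. They had 193 to 290.2 CPM for the small nuclear RNA Rn7sk, against 1.15 to 16.2, and 0.390 to 0.890 for the immediate early gene Fosb, against 116 to 231. A list of 10 immediate early and stress genes known to rise during tissue dissociation summed to 144 to 324 CPM in PBS and 1751 to 2394 in STZ mice, with no overlap there or in any of the 5 classes. Only 1 of the 9 rod clusters had 3 or more rod markers among its leading genes; it held 48.7% of the PBS rods and 83.0% of the STZ rods. What set the PBS libraries apart cannot be told apart from the effect of STZ in these samples.

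Fold changes are from edgeR with its own scaling, which moved every STZ minus PBS log2 difference by between -0.12 (Müller glia) and -0.41 (bipolar cells) relative to scaling by total counts. A gene was called at a Benjamini-Hochberg adjusted p below 0.05 over all genes tested in that class, and the intervals given are at 95%.

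The 10 genes differed in where they were found, as the map of levels by class shows. Slc2a1 was highest in retinal pigment epithelium, at 1581 CPM (95% interval 1349 to 1843) pooled over mice, and in endothelial cells, at 734 CPM (95% interval 671 to 801). The endothelial mice were spread from 265.5 to 2070 CPM with a median of 439.6, and those of the pigment epithelium from 764 to 5439 with a median of 1211. Both are barrier cells, and the pigment epithelium was a remnant of 75 cells, since the study removed that layer. Astrocytes followed at 444 CPM (95% interval 369.5 to 529.7), near the Müller glia with 382 ± 60.2 (mean ± SD, n = 11 mice). Every mouse had more Slc2a1 in Müller glia than any mouse had in another of the 5 tested classes. Rods (90.8 ± 30.9) and cones (80.1 ± 53.3) came next without separating from each other, and bipolar (43.7 ± 19.6) and amacrine cells (38.4 ± 16.2) were lowest and overlapped too. These intervals on pooled counts, and all others on counts, cover counting error only.

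Over all 11 mice, 8 of them given STZ, the mean Slc2a3 level was highest in amacrine cells (112 ± 25.5), which held 1407 of its 3051 UMIs and were above the bipolar cells of the same mouse in 9 of 11 mice. The order was another in the PBS mice, whose means were 162 ± 44.5 in rods, 132 ± 23.3 in bipolar cells and 97.7 ± 20.2 in amacrine cells. Retinal ganglion cells had 89.5 CPM (95% interval 74.8 to 106). Endothelial cells had 19 CPM (95% interval 10.1 to 32.6), and the pigment epithelium had 0 of 103707 UMIs, and 3 counts, the limit taken for a count of 0, would be 28.9 CPM. Txnip had its highest levels outside the neurons. It reached 233 CPM (95% interval 164 to 321) in microglia, 93.7 CPM (95% interval 72.2 to 119.7) in endothelial cells and 55.7 ± 22.5 in Müller glia, where every mouse was above its own bipolar cells, the next class (8.70 ± 6.56). Rods had 2.73 ± 2.10 of Txnip. Arrdc4 was low everywhere, from 2.88 ± 3.13 in cones to 15.5 ± 12.8 in Müller glia, and its neighbouring classes overlapped.

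The receptor and its substrates differed from each other in place. Insr was spread evenly, from 29.1 ± 19.6 in cones to 58.4 ± 22.7 in Müller glia, with each class overlapping the next. Irs1 was unevenly spread: amacrine cells held 62.8% of its UMIs (45.4 ± 21.2), Müller glia had 36.4 ± 12.2 and ganglion cells 45.8 CPM (95% interval 35.4 to 58.3), while 10074 rods held 10 UMIs and 1126 cones held 2. In all 11 mice Irs1 was higher in Müller glia than in bipolar cells, and higher in bipolar cells than in rods. In the PBS mice Irs1 was 27.1, 18.4 and 36.2 in Müller glia and 19.8, 24.2 and 20.5 in amacrine cells, which overlapped. Irs2 was present in all 5 classes, and its class order mixes the group difference described below. Its highest pooled level was in astrocytes, at 186 CPM (95% interval 139 to 244). Of their 52 Irs2 UMIs 27 came from ω-6 mouse 2, and the median over 10 mice was 103 CPM, near the cone mean of 106 ± 79.4. The mean Foxo1 level was higher in cones (79.4 ± 23.5), Müller glia (70.2 ± 25.7) and rods (53.8 ± 9.52) than in bipolar (25.5 ± 10.9) and amacrine cells (23.8 ± 5.31). Foxo3 had cones and rods at the top and amacrine cells at the bottom, from 81.8 ± 32.7 to 33.5 ± 14.3. Pdk4 was close to the limit of detection, with 129 UMIs in all, of which 15 were in the 113 endothelial cells, at 22.0 CPM (95% interval 12.3 to 36.2). Of those 15 UMIs 9 came from STZ mouse 2, without which the level was 9.46 CPM.

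**Figure D1:**
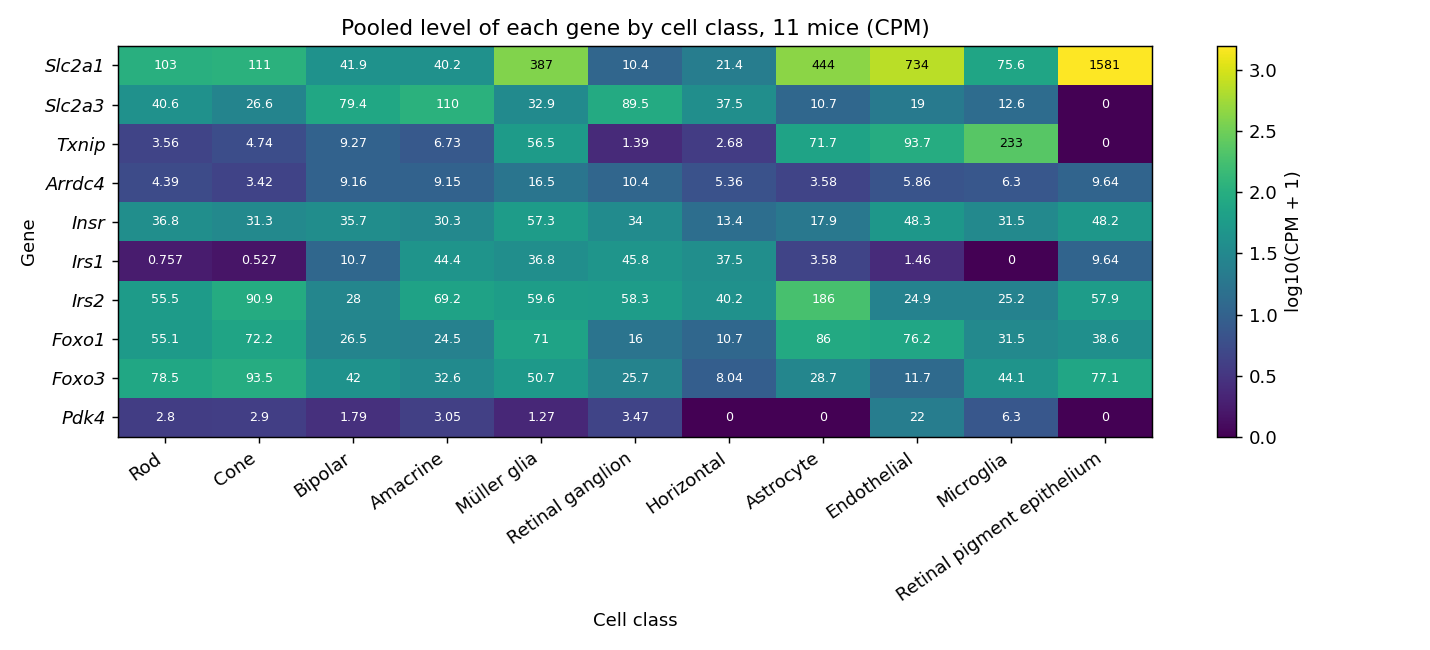
Level of each of the 10 genes (rows) in 11 cell classes (columns), as CPM pooled over 11 mice; the colour scale is log10 of the level plus 1 and the numbers are the levels. Slc2a1 peaks in pigment epithelium and endothelial cells, Slc2a3, in these sums of mostly STZ mice, in amacrine cells, and Irs1 is nearly absent from rods and cones.

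With STZ, Irs2 rose in rods, bipolar cells and amacrine cells, and so did Foxo3, though marginally in amacrine cells. Irs1 rose in bipolar and amacrine cells, and Slc2a3 fell in rods and bipolar cells. Over all cells, 6 of the 10 genes were called, 5 higher and 1 lower, where 48.1% of all genes tested were called (3943 higher and 3734 lower, or 5536 and 2306 with total-count scaling). In this sum, a change in level within a class and a change in the share of a class cannot be told apart. In the classes, 14 of the 29 gene and class pairs that passed the filter on low counts were called. Rods had 4 of 6 (40.8% of all genes called), cones 1 of 4 (18.8%), bipolar cells 4 of 7 (45.3%), amacrine cells 5 of 7 (38.8%) and Müller glia 0 of 5 (10.8%). Each class had 4 to 7 of the genes after the filter, so these counts are a description. The median log2 fold change of the 10 genes over all cells was 0.47, against 0.00 for all genes.

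Irs2 rose most. Over all cells it was 5.16, 8.96 and 8.61 CPM in the PBS mice and 86.8, 88.2 and 119 in the STZ mice, 10.7-fold higher (log2 fold change 3.42, 95% interval 2.93 to 3.90, adjusted p = 1.8e-06). The groups did not overlap, and the lowest STZ mouse was far above the highest PBS mouse. Rods had 5.80, 7.10 and 10.9 in PBS and 83.7, 62.6 and 126 in STZ mice (log2 fold change 3.10, 95% interval 2.16 to 4.04, adjusted p = 2.5e-05). Bipolar cells had 8.10, 5.86 and 0 against 53.0, 69.3 and 51.9 (log2 fold change 3.24, 95% interval 2.10 to 4.38, adjusted p = 2.8e-04). Amacrine cells had 4.95, 6.79 and 17.1 against 87.0, 112 and 123 (log2 fold change 3.16, 95% interval 2.45 to 3.86, adjusted p = 1.1e-05). In each of these 3 classes the 2 groups of mice separated fully. The share of all genes without overlap between PBS and STZ mice is not given, so separation here and below is a description.

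In Müller glia and cones Irs2 was not called. In Müller glia the PBS mice had no Irs2 UMI and the STZ mice had 30, 7 and 43, which makes the STZ level at least 28.1-fold higher against a floor of 3 counts over the PBS group; the filter on low counts removed the gene there. In cones the PBS mice had 0, 234 and 21.6 and the STZ mice 195, 150.5 and 210.2, and the difference was not called (log2 fold change 1.25, 95% interval 0.0045 to 2.51, adjusted p = 0.14). All 9 UMIs of the high PBS mouse came from 1 of its 13 cones, and without that mouse the gene was called, at a log2 fold change of 3.32. The 10 immediate early and dissociation genes were also higher in every class with STZ. In rods they summed to 113 to 215 CPM in PBS against 1426 to 1873 in STZ mice, and in bipolar cells to 83.2 to 118 against 446 to 547. Their part in this and the following STZ results was not tested.

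Irs1 also rose, in amacrine and bipolar cells. Amacrine cells had 19.8, 24.2 and 20.5 CPM in PBS and 77.4, 78.4 and 60.6 in STZ mice (log2 fold change 1.39, 95% interval 0.87 to 1.90, adjusted p = 5.1e-04). Bipolar cells had 2.31, 7.03 and 7.92 against 24.1, 35.7 and 16.8 (log2 fold change 1.67, 95% interval 0.66 to 2.67, adjusted p = 0.011). Both sets of mice were apart, but the bipolar call rests on 2, 6 and 8 PBS UMIs and was lost without PBS mouse 1 or STZ mouse 2. Only 15 of the 17 alternatives gave a value for Irs1 in bipolar cells, and 13 called it. Müller glia, too low for the test, had 27.1, 18.4 and 36.2 in PBS and 43.9, 36.1 and 58.9 in STZ mice, which overlapped. Over all cells Irs1 was 1.94-fold higher in STZ (log2 fold change 0.96, 95% interval 0.52 to 1.39, adjusted p = 0.0022). As stated above, Gm9747 shares these counts.

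Insr, the receptor, rose in amacrine cells. They had 21.8, 9.70 and 12.5 CPM in PBS and 31.8, 79.6 and 41.7 in STZ mice (log2 fold change 1.43, 95% interval 0.61 to 2.24, adjusted p = 0.0087), and STZ mouse 2 was far above the others: without it the call was lost, at 0.99. Bipolar cells had 23.1, 22.3 and 19.8 against 33.7, 53.5 and 51.9, apart but not called (log2 fold change 0.67, 95% interval 0.022 to 1.32, adjusted p = 0.085). Rods had 17.4, 53.3 and 40.1 against 27.3, 56.2 and 48.2, which overlapped (log2 fold change -0.092, 95% interval -0.94 to 0.76, adjusted p = 0.87), and the value turned positive with total-count scaling, at 0.21. Müller glia overlapped as well (93.1, 12.3 and 38.8 against 78.5, 61.8 and 74.6), and no difference was detectable. Over all cells Insr was 1.68-fold higher in STZ (log2 fold change 0.75, 95% interval 0.28 to 1.22, adjusted p = 0.013), a call that was also lost without STZ mouse 2. In cones 1 UMI was found in the PBS and 36 in the STZ mice, a ratio of levels of 8.53 with a counting interval of 1.44 to 346.2.

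Foxo3 rose over all cells and in bipolar cells, rods and amacrine cells, and Foxo1 was not called. Over all cells Foxo3 was 23.6, 22.6 and 23.7 in PBS and 70.5, 76.1 and 72.8 CPM in STZ mice, 2.61-fold higher (log2 fold change 1.38, 95% interval 1.08 to 1.69, adjusted p = 2.1e-05). Bipolar cells went from 26.6, 15.2 and 14.8 to 65.8, 65.4 and 71.8 (log2 fold change 1.43, 95% interval 0.78 to 2.08, adjusted p = 0.0018). Rods went from 40.6, 53.3 and 21.9 to 103, 99.5 and 93.6 (log2 fold change 1.12, 95% interval 0.44 to 1.80, adjusted p = 0.0095). None of these 3 sets of mice overlapped, though the rod call was lost without PBS mouse 3 (0.79) and with sums thinned to equal depth (1.06). Amacrine cells had 16.8, 18.4 and 33.1 against 43.5, 57.7 and 48.7; the call was marginal (log2 fold change 0.79, 95% interval 0.17 to 1.42, adjusted p = 0.044) and was lost in 9 of 17 alternatives: when any 1 mouse other than PBS mouse 3 was left out, with DESeq2, with all 4 groups in 1 fit, without the cells of highest doublet score and with thinned sums. Cones (log2 fold change 1.37, 95% interval 0.12 to 2.61, adjusted p = 0.11) and Müller glia (log2 fold change 1.18, 95% interval 0.22 to 2.14, adjusted p = 0.11) had fitted values of like size and no overlap between mice, and neither was called.

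For Foxo1 the fitted values lay on both sides of 0. Over all cells the mice did not overlap (34.6, 20.6 and 33.8 in PBS, 49.6, 46.0 and 43.3 in STZ), but the difference was not called with edgeR scaling (log2 fold change 0.37, 95% interval -0.074 to 0.81, adjusted p = 0.15) and was called with total-count scaling, at 0.63. Müller glia had 46.5, 36.8 and 51.7 against 72.2, 77.3 and 122 (log2 fold change 0.84, 95% interval 0.078 to 1.60, adjusted p = 0.14). Bipolar cells had 50.9, 15.2 and 25.7 against 33.7, 19.8 and 16.8 (log2 fold change -0.78, 95% interval -1.73 to 0.17, adjusted p = 0.16). Rods (-0.60 to 0.74), amacrine cells (-0.55 to 0.79) and cones (-1.22 to 0.77) had intervals of the log2 fold change that spanned 0.

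**Figure D2:**
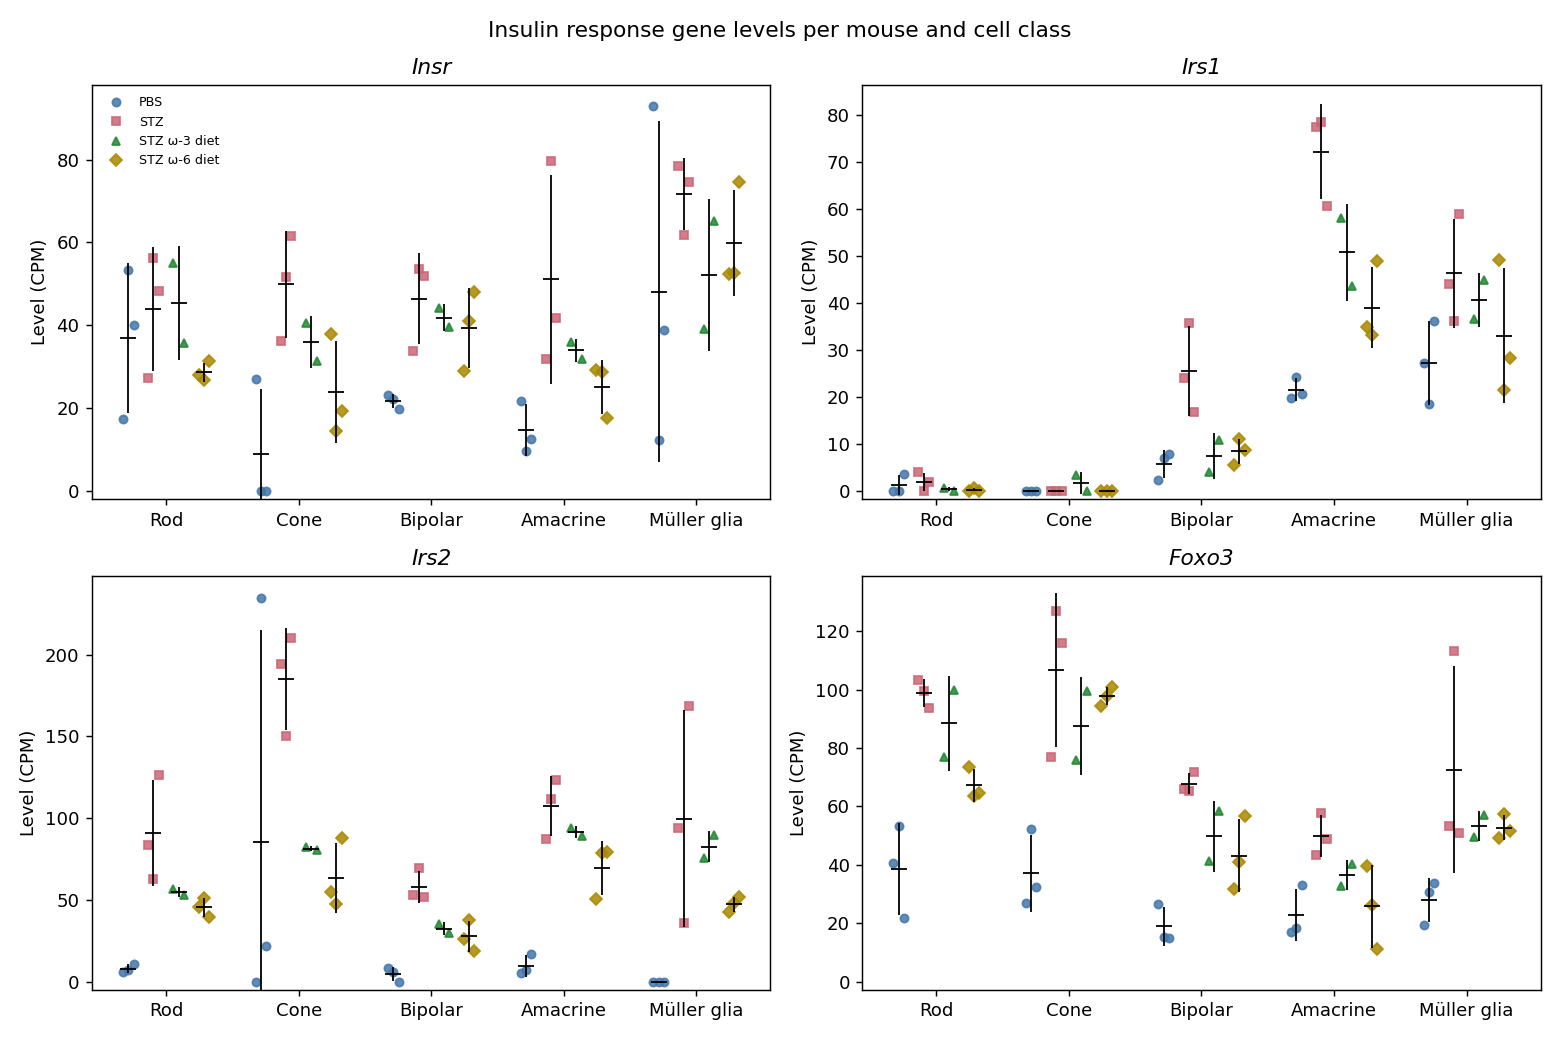
Levels of Insr, Irs1, Irs2 and Foxo3 (CPM of the class) in 5 cell classes; each point is 1 mouse, and the black bar is the mean with its SD, cut off at 0. Irs2 of the PBS mice is at most 21.6 but for 1 cone value of 234, and lies below all STZ mice in rods, bipolar cells, amacrine cells and Müller glia.

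The glucose transporter genes went in opposite directions in rods. Slc2a3 fell in rods, from 110.3, 185 and 189.8 CPM in the PBS mice to 34.1, 27.3 and 30.6 in the STZ mice (log2 fold change -2.70, 95% interval -3.30 to -2.11, adjusted p = 6.7e-07). The lowest PBS mouse was far above the highest STZ mouse. It fell in bipolar cells from 147, 105 and 144 to 75.4, 79.2 and 65.7 (log2 fold change -1.26, 95% interval -1.69 to -0.84, adjusted p = 2.1e-04), also without overlap. Amacrine cells had 79.2, 119 and 94.7 in PBS and 123, 165 and 136 in STZ mice, not called with edgeR scaling (log2 fold change 0.18, 95% interval -0.22 to 0.57, adjusted p = 0.47), and called higher with total-count scaling, at 0.53. Over all cells Slc2a3 was 93.2, 112 and 112 against 65.6, 90.1 and 67.7, lower in STZ and without overlap (log2 fold change -0.78, 95% interval -1.10 to -0.46, adjusted p = 0.0012).

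The STZ effect on Slc2a3 differed between the classes in a test of that difference, a model with a term for each mouse. The class pairs were chosen after the values had been seen, so the adjusted p-values here are given as a description. The amacrine log2 fold change exceeded that of rods by 2.93 ± 0.32 (SE; adjusted p = 9.4e-07), where 10.5% of all genes differed, and that of bipolar cells by 1.56 ± 0.27 (SE; adjusted p = 0.0028), where 1.82% differed. Bipolar cells exceeded rods by 1.27 ± 0.35 (SE; adjusted p = 0.024), where 7.79% differed. Of the 7 genes in these fits only Slc2a3 was called, and it was called in all 3; Insr came next, with 1.53 ± 0.53 (SE; adjusted p = 0.063) between amacrine cells and rods. The amacrine and rod difference held in all 16 alternatives run. The amacrine and bipolar difference was lost when any 1 STZ mouse was left out (lowest value 1.27, where STZ mouse 2 was left out), and the bipolar and rod difference was lost in 5 alternatives, among them without STZ mouse 2 (1.12) and in rods of the marker-led cluster alone (1.08).

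Markers of several other classes were lower in STZ than in PBS rods, as Slc2a3 was, and their part in its fall was not tested. Of 17 amacrine markers 16 had UMIs in rods of both groups (Slc18a3 was at 0), and they summed to 449.8 to 742 CPM in PBS rods and 287 to 363 in STZ rods. The cone markers (9 of 9 with UMIs) summed to 469 to 714 and 239 to 383, the Müller glia markers (13 of 13) to 316 to 759.8 and 222 to 255, and the horizontal cell markers (5 of 6, with Lhx1 at 0) to 179.9 to 228 and 123 to 175, all without overlap. The 15 bipolar markers summed to 889 to 1271 and 831 to 1016, which overlapped. Rod markers were 11446 to 20521 in PBS and 32352 to 45459 in STZ rods. In PBS mice 2 and 3 the Slc2a3 level of rods was above that of both the bipolar and the amacrine cells of the same mouse. In PBS mouse 1 the rod level was below that of the bipolar cells and above that of the amacrine cells. In the rod cluster led by rod markers alone the log2 fold change of Slc2a3 was -2.48.

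Slc2a1 rose over all cells and in rods, amacrine cells and cones. Over all cells it was 66.0, 50.3 and 71.5 in PBS and 106, 116 and 114 CPM in STZ mice (log2 fold change 0.57, 95% interval 0.24 to 0.90, adjusted p = 0.0087). Amacrine cells went from 15.8, 12.6 and 19.4 to 37.1, 34.6 and 57.6 (log2 fold change 1.10, 95% interval 0.42 to 1.77, adjusted p = 0.014), without overlap. Rods went from 52.2, 35.5 and 47.4 to 93.5, 97.9 and 108 (log2 fold change 0.80, 95% interval 0.22 to 1.38, adjusted p = 0.026). The rod mice were apart too, but the call was lost in 6 of 18 alternatives, in rods of the marker-led cluster at 0.49. In amacrine cells it was lost without STZ mouse 3, and there the rod markers were 373 to 452 in PBS and 787 to 1216 in STZ mice.

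In cones 1 Slc2a1 UMI was found in the 73 PBS cells and 22, 15 and 25 in those of the STZ mice, a ratio of levels of 14.7 with a counting interval of 2.54 to 589.5. The fitted test called it (adjusted p = 0.015), and without PBS mouse 1 or 3 it did not. Only 13 of the 17 alternatives gave a value for Slc2a1 in cones, and 11 called it. Bipolar cells had 30.1, 24.6 and 13.9 against 25.7, 55.5 and 79.4, which overlapped (log2 fold change 0.82, 95% interval -0.028 to 1.67, adjusted p = 0.1). In Müller glia, the class with the highest level of the 5, PBS mice had 302, 313 and 297 and STZ mice 421, 453 and 365. These did not overlap, but the difference was not called (log2 fold change 0.32, 95% interval -0.057 to 0.70, adjusted p = 0.26).

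**Figure D3:**
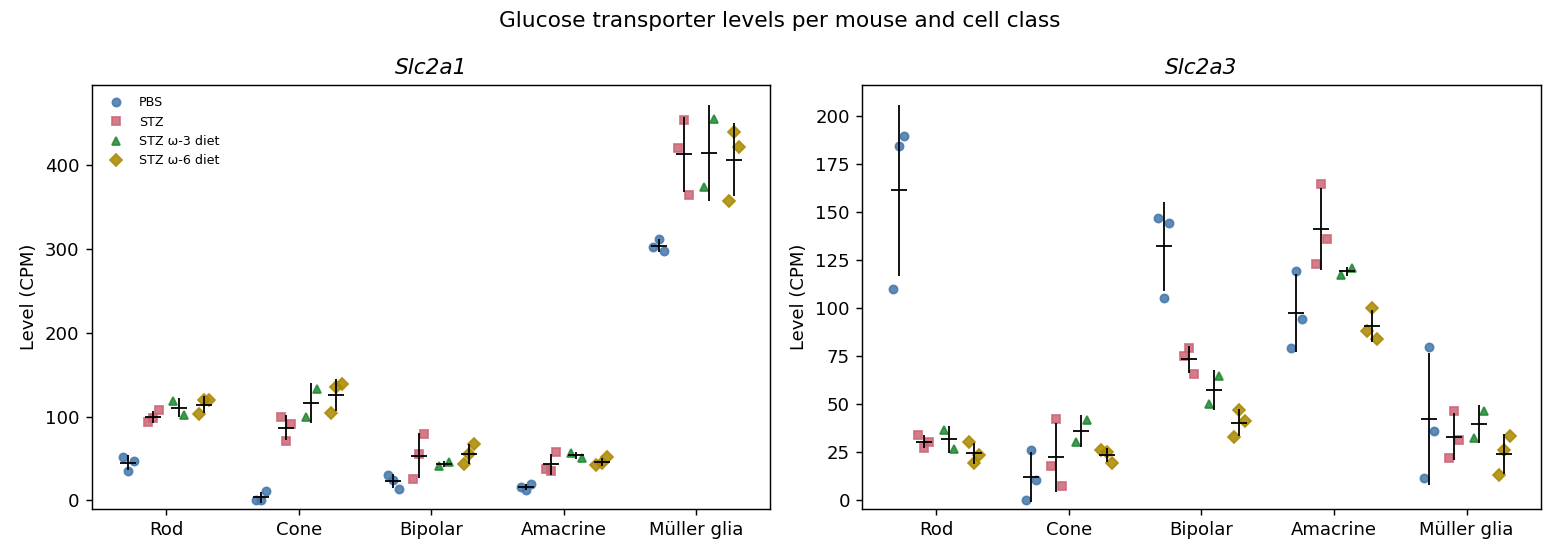
Levels of Slc2a1 and Slc2a3 (CPM of the class) in 5 cell classes; each point is 1 mouse, and the black bar is the mean with its SD, cut off at 0. Slc2a3 of the PBS mice stands above that of all STZ mice in rods and bipolar cells but not in amacrine cells, and Slc2a1 of the PBS mice is lowest in rods, cones and Müller glia.

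The α-arrestins, whose genes are activated by glucose sensing, were not called with STZ; both could be tested over all cells, and Txnip in Müller glia. Txnip over all cells was 9.95, 10.5 and 15.4 CPM in PBS and 15.1, 4.68 and 14.1 in STZ mice (log2 fold change -0.32, 95% interval -1.17 to 0.52, adjusted p = 0.51). Without STZ mouse 2 its direction turned, at 0.063. Müller glia, which hold 223 of its 581 UMIs, had 62.0, 24.5 and 77.6 against 53.3, 25.8 and 90.3 (log2 fold change -0.13, 95% interval -1.13 to 0.87, adjusted p = 0.87). Both sets of values were wide and overlapped. Arrdc4 over all cells was 5.53, 4.29 and 7.72 against 8.77, 10.5 and 6.60 (log2 fold change 0.26, 95% interval -0.49 to 1.01, adjusted p = 0.55) and overlapped.

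Pdk4 rested on few molecules. Over all cells it was 3.32, 6.62 and 3.56 CPM in PBS and 2.12, 4.68 and 1.72 in STZ mice, which overlapped (log2 fold change -0.96, 95% interval -1.98 to 0.067, adjusted p = 0.11). In rods 15 UMIs were found in PBS, 10 of them in PBS mouse 2, and 3 in STZ mice, a ratio of levels of 0.0861 with a counting interval of 0.0160 to 0.304. The gene passed the filter in no class.

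Of 42 other genes from the insulin receptor to AKT and mTOR, 40 were tested over all cells: 23 rose and none fell, where 48.1% of all genes were called, with a median log2 fold change of 0.58. Igf1r, the IGF1 receptor, rose from 61.5 ± 0.382 to 204 ± 35.2 CPM, as mean ± SD over 3 mice each (log2 fold change 1.46, adjusted p = 1.6e-05), and was called in rods, bipolar cells, amacrine cells and Müller glia. Ptpn1, the phosphatase that acts on the insulin receptor, rose (log2 fold change 1.55, adjusted p = 2.6e-05) and was called in 4 classes. Pik3r3, a regulatory subunit of phosphoinositide 3-kinase, was called in 4 classes but fell in rods (log2 fold change -1.97, adjusted p = 0.0014), and rose in bipolar cells (log2 fold change 0.73, adjusted p = 0.0026).

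Of 21 other FoxO factors and FoxO targets in the table, 19 were tested over all cells: 14 rose and 1 fell, with a median of 1.42, where 48.1% of all genes were called and their median was 0.00. Trib1, a pseudokinase gene, rose in all 5 classes, among them Müller glia (log2 fold change 3.75, adjusted p = 3.9e-06) and rods (log2 fold change 0.80, adjusted p = 0.034). Cited2, a coactivator gene, rose over all cells (log2 fold change 2.02, adjusted p = 1.7e-06) and in 4 classes. Gadd45a, a stress gene, rose over all cells (log2 fold change 1.43, adjusted p = 3.3e-04) and in 4 classes. Among 7 tested α-arrestin, thioredoxin and MondoA/ChREBP genes 2 rose and 2 fell, with the same 48.1% of all genes called. Arrdc3, an α-arrestin relative of Txnip, rose from 10.7 ± 2.82 to 59.5 ± 3.08 (log2 fold change 2.22, adjusted p = 1.2e-05). Txn1, the thioredoxin that TXNIP binds, fell from 194 ± 7.37 to 104 ± 11.9 (log2 fold change -1.16, adjusted p = 2.8e-05), and Txn2, its mitochondrial counterpart, fell (log2 fold change -0.52, adjusted p = 0.0033).

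Of other glucose transporter genes, most were too low to test. Of the 11 measured, 4 were tested over all cells and none was called, where 48.1% of all genes were called. Slc2a8 (GLUT8) was called in bipolar cells (log2 fold change 1.34, adjusted p = 0.032), where 45.3% of all genes were called. Of 6 other pyruvate dehydrogenase kinases and phosphatases 1 rose over all cells and none fell, beside the same 48.1% of all genes. In the classes only Pdp1, a phosphatase subunit, was called, in bipolar cells (log2 fold change 1.10, adjusted p = 0.01). The medians of the 5 lists over all cells ranged from -0.18 to 1.42, and that of all genes was 0.00.

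The diets were compared among STZ pups. With all cells counted as a further class, none of the 49 gene and class pairs tested was called with ω-6 against ω-3. In the fit as designed edgeR called no gene of any kind in all cells, rods, cones, bipolar cells, amacrine cells or Müller glia (0.0% in each). Over all genes, 283 to 1383 in each of these sets had an unadjusted p below 0.05 and DESeq2 called 2 to 44. The unadjusted counts were 283 of 7945 genes tested in Müller glia, 503 of 11942 in bipolar cells and 1383 of 12590 in rods. Other edgeR fits called some genes, 10 to 75 in each set with the replicate number as a block and 150 in rods and 139 in amacrine cells without the filter on low counts, none of them one of the 10 genes. Of the 49 pairs, at an unadjusted p below 0.05 there were 2, Insr in rods and Irs2 in Müller glia, and DESeq2 called none of the pairs. DESeq2 gave an adjusted p for only 630 genes in rods and 2401 over all cells, where edgeR tested 12590 and 18821. A pair without an adjusted p could not be called, so the lack of DESeq2 calls carries little weight there. Irs2 in Müller glia was 75.7 and 89.5 CPM with ω-3 and 42.6, 47.8 and 51.5 with ω-6 (log2 fold change -0.73, 95% interval -1.41 to -0.039, adjusted p = 0.99), without overlap. Insr in rods was 55.0 and 35.6 with ω-3 and 27.9, 26.8 and 31.2 with ω-6 (log2 fold change -0.52, 95% interval -1.03 to -0.0037, adjusted p = 0.45), also apart. In both cases the ω-6 mice were the lower ones.

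Over all cells the 95% intervals of the diet effect were narrower for some genes than for others. They were wide for Pdk4 (-1.18 to 1.63) and Txnip (-0.47 to 0.79), so sizeable differences of either direction remain possible there. Slc2a3 was 58.2 and 59.1 with ω-3 and 44.2, 50.4 and 45.0 with ω-6 (log2 fold change -0.25, 95% interval -0.57 to 0.062, adjusted p = 0.68). Irs2 was 65.6 and 64.1 with ω-3 and 44.8, 61.5 and 53.5 with ω-6 (log2 fold change -0.20, 95% interval -0.57 to 0.16, adjusted p = 0.77). Insr was 46.2 and 37.0 with ω-3 and 31.6, 30.3 and 34.0 with ω-6 (log2 fold change -0.30, 95% interval -0.66 to 0.067, adjusted p = 0.68). For these 3 genes all ω-6 mice were below both ω-3 mice, and the mice did not overlap for Foxo1 either (log2 fold change -0.13). None of the differences passed the test. The share of all genes without overlap was not counted, and with 2 against 3 mice such separation carries little weight. Slc2a3 in amacrine cells was 118 and 121 with ω-3 and 88.4, 100.4 and 84.1 with ω-6 (log2 fold change -0.30, 95% interval -0.67 to 0.065, adjusted p = 0.56). The most positive fitted differences were of scarce genes, Arrdc4 in rods (log2 fold change 0.95, 95% interval -0.36 to 2.25, adjusted p = 0.57) and Txnip in amacrine cells (log2 fold change 0.85, 95% interval -0.34 to 2.05, adjusted p = 0.62), and their mice overlapped. Hemoglobin and other erythrocyte genes (5 genes) ranged from 24.0 to 6126 CPM in ω-6 rods against 4.73 to 27.2 in ω-3 rods; their part in these values was not tested.

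Set beside the first set of mice, the diet groups had these levels of Irs2. Over all cells it was 7.58 ± 2.10 in PBS (n = 3), 98.1 ± 18.4 in STZ (n = 3), 64.9 ± 1.01 with ω-3 (n = 2) and 53.3 ± 8.35 CPM with ω-6 (n = 3). Slc2a3 in rods was 31.7 ± 7.0 with ω-3 and 24.5 ± 5.49 with ω-6, beside 30.6 ± 3.40 in STZ mice. Irs1 in bipolar cells was 7.35 ± 4.85 with ω-3 and 8.36 ± 2.73 with ω-6, against 5.75 ± 3.01 in PBS and 25.5 ± 9.51 in STZ mice. The sets came from different litters and dam diets, so these values are given without a test.

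**Figure D4:**
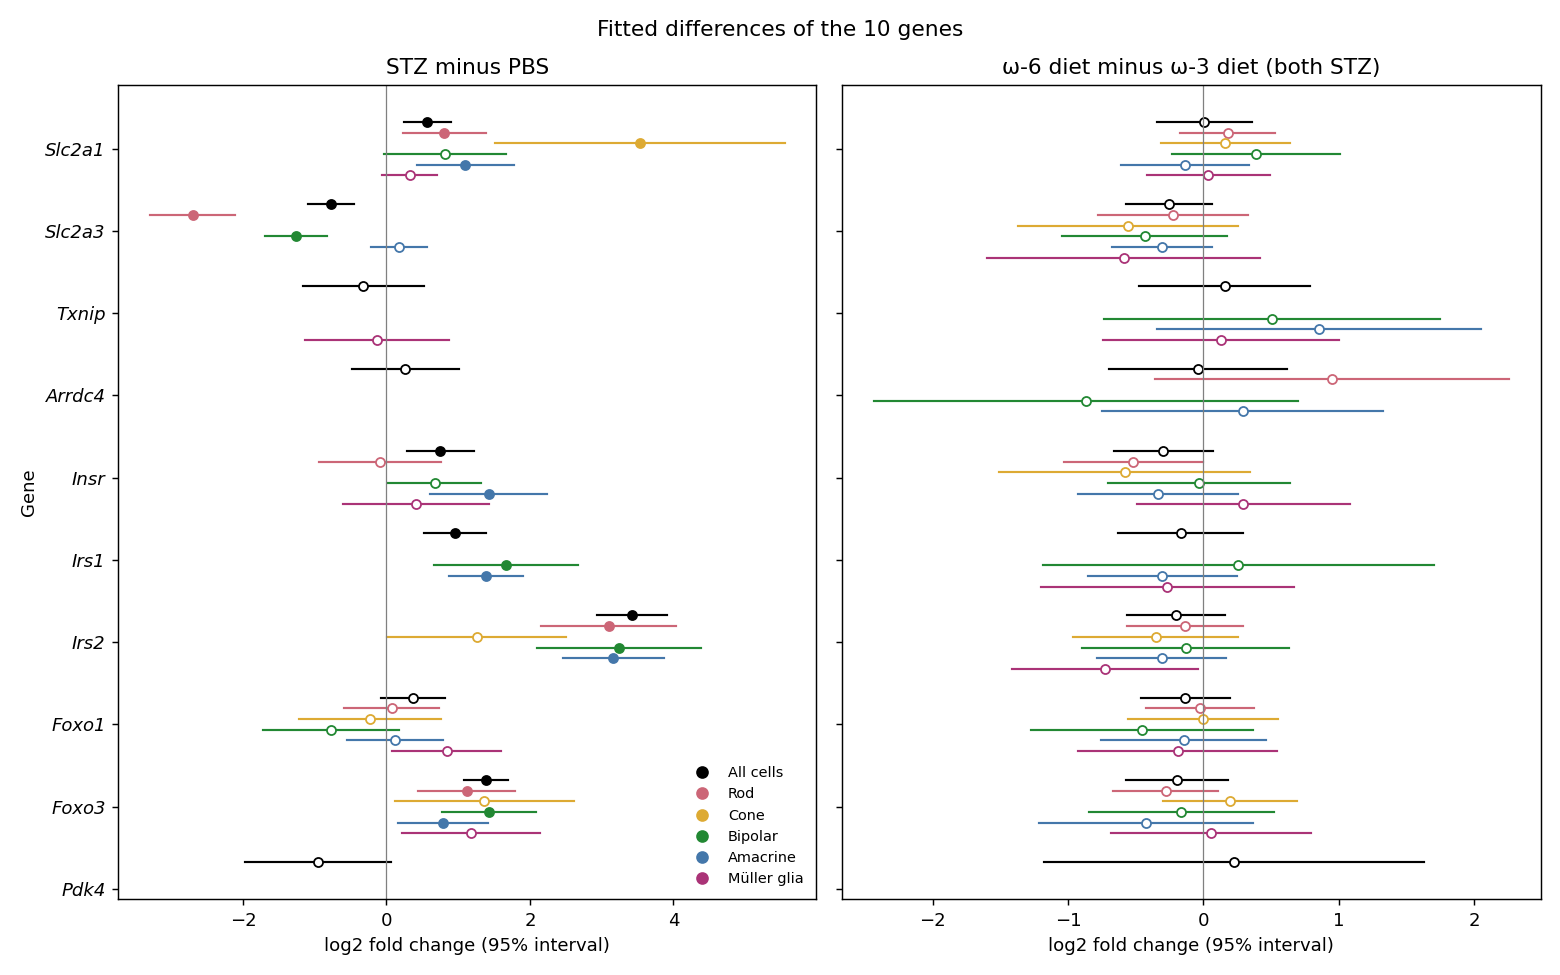
Fitted log2 fold change with its 95% interval for each of the 10 genes (rows) over all cells and in 5 classes (colours), for STZ minus PBS (left) and ω-6 minus ω-3 (right); filled points were called at an adjusted p below 0.05 and pairs removed by the filter on low counts are missing. Irs2 lies above 3 in all cells, rods, bipolar cells and amacrine cells, Slc2a3 is below 0 in rods and bipolar cells but not in amacrine cells, and no point on the right is filled.

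The genes whose levels followed each of the 10 most closely were read from 55 sums of 5 classes in 11 mice, as Pearson's r of log2 levels, which share libraries and depth and are given as a description. For Irs2 they were Pigg (0.82), Tob1 (0.81), Ppm1a (0.78). For Slc2a1 they were Aldh9a1 (0.92), Nek9 (0.91), Abhd4 (0.91), and for Slc2a3 9330162G02Rik (0.83), AC161763.1 (0.83), A230103L15Rik (0.81). Txnip was followed by Col18a1 (0.87), Mfap2 (0.87), Cd151 (0.87) and Insr by Fermt2 (0.85), Crebrf (0.84), Cux1 (0.83). Foxo3 was followed by Chd7 (0.85), Ddit3 (0.81), Wasf3 (0.80) and Foxo1 by Pla2g5 (0.80), Ctnna1 (0.80), A930005G22Rik (0.80). Irs1 was followed by Gm9747 (1.00), Slc6a11 (0.93), Synpr (0.93), the first being the gene that shares its reads. Arrdc4 (Zfp275 (0.78), Tnrc18 (0.76), Wnk2 (0.75)) and Pdk4 (Olfr1039 (0.60), Acad9 (0.59), Pou1f1 (0.57)) had partners of lower r.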

How the data were processed

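Per the study's methods, the authors sequenced inDrop v3 libraries, mapped reads to GRCm38 transcripts with RapMap through bcbio, collapsed them by UMI and left out cells with few reads; the deposited values are UMI counts per gene and cell, not normalized. From these counts, cells with more than 300 genes were clustered in Seurat 5.3.0 following the study's steps, and clusters were named from marker genes. Scrublet (scanpy 1.11.5) marked only 72 cells (0.359%), and whether its threshold suited these data was not tested. Removing the top 5% of scores was tried instead. UMIs were summed per mouse and class (at least 10 cells per mouse) and tested with edgeR 4.0.16 (quasi-likelihood, TMM, filterByExpr, two-sided, Benjamini-Hochberg), in R 4.3.3; the scripts were tested on simulated data. A mouse is a replicate. Alternatives were DESeq2 1.42.0, other scalings, filters and classes, each mouse left out, and a replicate block; total-count scaling, the marker-led rods and the test between classes were added after seeing the data. Text names all 10 genes, up to 3 genes per pathway list called in most classes, and the 3 genes most like each. The 10 genes, lists and markers were chosen with earlier results of these data known. Likeness used log2(CPM + 1). Libraries held 2563064 to 6516478 UMIs in kept cells; intervals on pooled counts are exact Poisson. Genomic positions are from GENCODE M21, promoters from RefSeq (GRCm38.p6).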

Additional observations from a re-analysis of the deposited data

Results flagged for a closer look

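The response of Slc2a3 to STZ differed between cell classes, by a term for class and treatment in a model with a term for each mouse. Amacrine cells exceeded rods by 2.93 on the log2 scale and bipolar cells by 1.56, and bipolar cells exceeded rods by 1.27. These contrasts were chosen after the values had been seen. The first was called in every alternative run, from 2.14 to 3.00; the second was not called without STZ mouse 1 (1.45), 2 (1.27) or 3 (1.28); the third was not called without STZ mouse 2 (1.12), with classes by marker score (0.80) or in the marker-led rod cluster (1.08), among others.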

How the results depend on the processing

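With all cells counted as a further class, 20 of 39 gene and class pairs were called for STZ minus PBS. The number called stayed between 16 and 25 under every alternative run: 18 with DESeq2, 25 with total-count scaling, 23 without a filter on low counts, 16 with sums thinned to equal depth, and 16 to 22 when 1 mouse was left out. For ω-6 minus ω-3 it was 0 under every alternative, though DESeq2 gave an adjusted p for only part of the genes over all cells and in rods. Same-numbered mice deviated together weakly (r -0.02, 0.13 and 0.17 for PBS and STZ, 0.12 and 0.32 for the diets), so the numbers were not taken to pair the mice; with the replicate number as a block the count was again 20 for STZ and 0 for the diets. Of the values for single genes, 733 kept their direction and their side of the threshold, 32 fell below it, 10 rose above it and 23 turned direction. This tally covers alternatives of 50 fitted values, which are not all pairs of both comparisons.

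For STZ minus PBS the direction turned only for values that were not called, and the cause was not tested. Turns in the diet comparison are not listed. Insr in rods (-0.092) was 0.21 with total-count scaling, 0.28 without the filter, 0.022 with all 4 groups in 1 fit, 0.27 in cells with more than 500 genes, 0.35 with thinned sums, 0.082 with classes by marker score, 0.10 when clustered without the genes of interest and 0.32 in the marker-led rod cluster; leaving out 1 mouse gave -0.35 to 0.20. Foxo1 in rods (0.070) was -0.15 in the marker-led cluster, and -0.014 to 0.28 with 1 mouse left out. Foxo1 in cones (-0.22) was 0.098 with total-count scaling, 0.033 without the filter and 0.020 with classes by marker score, and -0.45 to 0.48 with 1 mouse left out. With 1 mouse left out, Foxo1 in amacrine cells was -0.030 to 0.23, Txnip over all cells -0.60 to 0.063 and Txnip in Müller glia -0.58 to 0.21; the latter was 0.026 with total-count scaling.

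Depth limits the scarce genes: for STZ minus PBS, Pdk4 (129 UMIs in all) and Arrdc4 were tested over all cells but in no class, and Txnip in Müller glia alone among the classes, and the 73 PBS cones set the precision of every cone value. Where 1 mouse is left out of a pair of ω-3 mice, the lone mouse is assumed to vary like the ω-6 group.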
